A study of Homo sapiens with 4 samples.

Results

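MALAT1 and NEAT1 are long non-coding RNA genes that lie close to each other on human chromosome 11, between the protein-coding genes FRMD8 and LTBP3. The 4 genes were taken from the deposited table by their symbols, out of 60048 gene rows, and each symbol matched 1 row. The assay was EU-seq, in which cells take up the uridine analogue 5-ethynyl uridine (EU) for a short time and the RNA made in that time is captured and sequenced. The cells were HCT116, a human colorectal carcinoma line, and all of them had the genotype RAD21-mAC, in which the cohesin subunit RAD21 carries a degron tag that lets auxin trigger its destruction; the loss of the protein is not seen in these data. Control cells received DMSO (2 libraries), and auxin cells were kept for 3 h in 0.5 mM indole-3-acetic acid (2 libraries). EU was given at 0.5 mM for 20 min to both groups. The labels do not say whether replicates came from separate cultures, so p-values measure only the spread between these libraries, and 1 cell line was studied.

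MALAT1 RNA collects at nuclear speckles, bodies rich in splicing factors, and is among the most abundant nuclear RNAs of many cell types. NEAT1 RNA is the scaffold of paraspeckles, nuclear bodies built by the long isoform of the gene together with RNA-binding proteins such as NONO and SFPQ. The short isoform starts at the same place and ends early at a polyadenylation site. Neither long RNA ends in the usual way: RNase P cuts the 3′ ends of MALAT1 and of long NEAT1 upstream of a tRNA-like structure, which in MALAT1 is released as mascRNA. By its title, the study is about cohesin as a restraint on the release of paused polymerase and an aid to processive elongation.

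The values are a signal scaled per library and not read counts, and their totals ran from 61135244 to 93113007 over the 4 libraries. Libraries were brought to a common level by the trimmed mean of M-values, so a rise or fall shared by all genes cannot be seen. How many reads lie behind a value is unknown. The values behave as sums over fixed windows of 100 bases without regard to strand: 67 of 67 pairs of rows that cover the same 100-base windows with different ends had equal values (within 0.02) in all libraries, 29 of 29 where the rows lie on opposite strands. Of 21334 pairs in which the windows of 1 row all lie inside those of the other, the inner row exceeded the outer by more than that tolerance in 0. Signal is therefore also given per 100-base window. The 5 epithelial markers all had signal, with group means from 4651 (EPCAM, auxin) to 23325 (KRT8, control). At a limma adjusted p under 0.05, 0 of them were called, against 0.732% of all genes tested. By limma 3 of the 5 had an unadjusted p under 0.05, against 10.2% of all genes tested. CDH1 was higher in auxin (mean 11130 in control, 16332 in auxin, log2 fold change 0.55, adjusted p = 0.0578 by limma), and EPCAM, KRT8, KRT18 and KRT19 had log2 fold changes from -0.37 to -0.18. Of 6 markers of other cells, CD3E and COL1A2 did not pass the filter on low values. Of the other 4, 0 were called and 1 had an unadjusted p under 0.05 by limma, against the same shares. Their means in control and auxin were 28.6 and 29.3 for PTPRC, 37.3 and 50.4 for VIM, 201 and 231 for PECAM1, and 654 and 946 for COL1A1 (log2 fold change 0.54, adjusted p = 0.335 by limma). The part of these markers in the results was not tested.

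RefSeq gives MALAT1 (ENSG00000251562, lncRNA, plus strand, GRCh38 chromosome 11, 65497688 to 65506431 in the deposited table) a pair of start sites, at 65497738 and 65499045, which are 1307 bases apart. The promoter windows of both, from 250 bases before to 50 bases after the start, are shown because a short row of the table lies between the starts, and its signal is given further on. Both are on the plus strand of GRCh38.p14, chr11:65497488-65497787 for the first and chr11:65498795-65499094 for the second. Capitals mark matches, on either strand, to the motifs searched.
MALAT1 first start: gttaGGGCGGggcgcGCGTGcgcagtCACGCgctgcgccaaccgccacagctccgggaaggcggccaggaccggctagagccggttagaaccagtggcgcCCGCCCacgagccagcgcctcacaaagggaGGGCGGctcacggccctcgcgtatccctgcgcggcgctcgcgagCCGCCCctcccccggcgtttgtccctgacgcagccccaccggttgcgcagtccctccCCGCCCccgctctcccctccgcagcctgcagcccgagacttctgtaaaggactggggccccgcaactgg
MALAT1 second start: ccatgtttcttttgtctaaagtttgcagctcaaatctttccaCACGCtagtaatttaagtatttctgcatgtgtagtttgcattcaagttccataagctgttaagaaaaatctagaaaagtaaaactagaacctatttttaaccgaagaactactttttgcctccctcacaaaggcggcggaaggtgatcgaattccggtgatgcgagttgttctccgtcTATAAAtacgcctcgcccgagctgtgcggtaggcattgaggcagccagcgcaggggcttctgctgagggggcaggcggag

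The 2 windows differ in make-up. The first has 73.7% G and C and holds GGGCGG, the GC box, 5 times, a motif found in 45.0% of all 35116 RefSeq promoter windows of this length. The second has 46.0% G and C, holds no GGGCGG, and has TATAAA, the TATA box, at position -30 from the start. TATAAA was found in 11.5% of all windows. GCGTG, the core bound by the aryl hydrocarbon receptor, was in both windows and in 36.5% of all. CCAAT (34.6% of all windows), TGACTCA (4.95%), CACGTG (7.26%) and TGACGTCA (1.85%) were in neither. Each motif was searched on both strands, none contains another, and a match describes the letters only.

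The nascent signal of MALAT1 did not differ between control and auxin beyond the spread of the libraries. Its scaled signal was 19319 and 23111 in control replicates 1 and 2, and 22574 and 20652 in auxin replicates 1 and 2. Both auxin libraries lay between the control libraries. The control mean was 21215 ± 2681 and the auxin mean 21613 ± 1359 (n = 2 each, SD), so the log2 fold change was 0.031 (SE 0.12, adjusted p = 0.986 by limma). The 95% interval of the fold ran from 0.850 to 1.23, and the sign turned without control replicate 1 (log2 fold change -0.089) and without auxin replicate 1 (-0.025). RefSeq places TALAM1, an antisense RNA (65499312 to 65507432), over most of MALAT1, and the row holds the signal of both strands.

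NEAT1 (ENSG00000245532, lncRNA, plus strand, chromosome 11, 65422798 to 65445540) had a scaled signal of 13499 and 14343 in the control libraries, and of 14558 and 16098 in the auxin libraries. Both auxin libraries lay above both control libraries, by a narrow margin. Over all 39464 genes tested, 18.6% showed that order. The means were 13921 ± 596 and 15328 ± 1089 (n = 2 each, SD), a log2 fold change of 0.14 (adjusted p = 0.813 by limma, SE 0.11), so the difference did not pass the test. The 95% interval of the fold ran from 0.923 to 1.31.

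FRMD8 (ENSG00000126391, protein-coding, plus strand, 65386637 to 65413525) ends 9.27 kb before NEAT1 starts and encodes a FERM-domain protein that binds iRhoms and stabilises them with the protease ADAM17 at the cell surface. Its scaled signal was 10177 and 9166 in control and 11597 and 10523 in auxin. The auxin libraries again lay above the control libraries, an order seen in 18.6% of all genes tested. The replicates within each group differed by almost as much. Replicate 1 was above replicate 2 by 0.15 on the log2 scale in control and by 0.14 in auxin. The means were 9672 ± 715 and 11060 ± 759 (n = 2 each, SD), a log2 fold change of 0.19 (adjusted p = 0.702 by limma, SE 0.12). The 95% interval of the fold ran from 0.946 to 1.38.

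LTBP3 (ENSG00000168056, protein-coding, minus strand, 65538559 to 65558359) encodes a secreted protein that binds latent TGF-beta and helps to store it in the extracellular matrix. It is transcribed toward MALAT1, and its 3′ end lies 32.1 kb beyond the end of MALAT1. Its scaled signal was 5853 and 6239 in control and 6433 and 5460 in auxin. The auxin libraries lay on either side of the control libraries. The log2 fold change was -0.028 (SE 0.14, adjusted p = 0.988 by limma, means 6046 ± 273 and 5946 ± 688, n = 2 each, SD). The 95% interval of the fold ran from 0.793 to 1.21, and the sign turned with scaling by library total (0.0072).

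**Figure D1:**
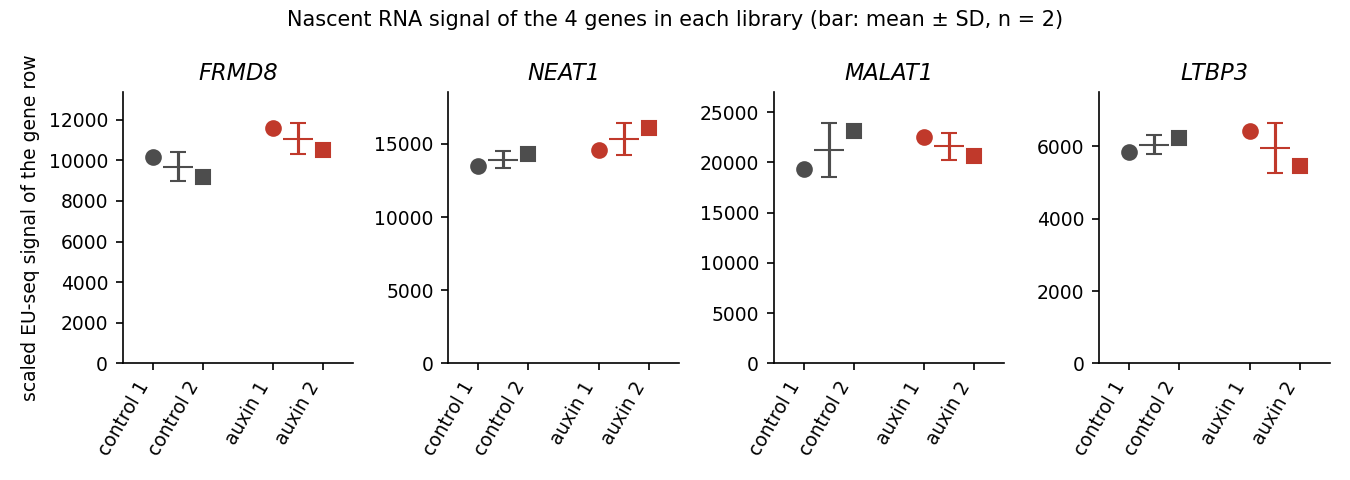
Scaled EU-seq signal (vertical axes, from 0) of FRMD8, NEAT1, MALAT1 and LTBP3 in control (grey) and auxin (red) libraries, with circles for replicate 1, squares for replicate 2 and bars for mean ± SD. The auxin points lie above the control points for FRMD8 and NEAT1, and the groups overlap for MALAT1 and LTBP3.

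None of the 4 genes was called, at a limma adjusted p under 0.05, where 0.732% of the genes tested were (289 of 39464: 0.332% higher and 0.4% lower with auxin). Of the 4, also 0 had an unadjusted p under 0.05, against 10.2% of the genes tested. The changes were of ordinary size or smaller: 51.3% of tested genes had a larger absolute log2 fold change than FRMD8, 63.2% than NEAT1, 91.1% than MALAT1 and 91.9% than LTBP3. The median SE over the tested genes was 0.25, against 0.11 to 0.14 for these 4, so sizes are not compared at equal precision. Over the 4 genes, the 95% intervals of the fold reached from 0.793 to 1.38.

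Ratios between the genes were also taken within each library, where no scaling between libraries is needed. Of the 6 pairs, only FRMD8 over LTBP3 had groups that did not overlap. This ratio was 1.74 and 1.47 in control and 1.8 and 1.93 in auxin, a shift of 0.22 on the log2 scale. NEAT1 over MALAT1 was 0.699 and 0.621 in control and 0.645 and 0.780 in auxin, a shift of 0.11 with overlapping groups. The shifts of the other 4 pairs were 0.056 for FRMD8 over NEAT1, 0.16 for FRMD8 over MALAT1, 0.17 for NEAT1 over LTBP3 and 0.059 for MALAT1 over LTBP3. Two-sided exact permutation tests gave p of 0.33 for FRMD8 over LTBP3, the smallest that this design allows, 1 for FRMD8 over MALAT1 and NEAT1 over LTBP3, and 0.667 for the other pairs, and 1 for each after adjustment over the 6 pairs.

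Per kb of span, MALAT1 had the most signal and LTBP3 the least. MALAT1 had a mean scaled signal of 2449 per kb, with 2209 to 2643 over the 4 libraries. NEAT1 followed with 643 (594 to 708), FRMD8 with 386 (341 to 431) and LTBP3 with 303 (276 to 325). The ranges of neighbours in this order did not overlap. The median over tested genes was 53.6 per kb, and 3.53 over the 7340 tested lncRNA genes that span at least 5 kb. MALAT1 ranked 1 among those lncRNA genes, ahead of SNHG7, a snoRNA host gene, at 1493 per kb, and NEAT1 ranked 31. Only 0.550% of all tested genes had more signal per kb than MALAT1. As a share of the library, MALAT1 took 0.0247% to 0.0301% and NEAT1 0.0173% to 0.0209%.

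The table also holds short rows that lie inside NEAT1 and show its signal at a few places. The rows AP000944.4, AP000944.3 and AP000944.2, annotated as misc_RNA, start 475, 840 and 1162 bases after the start of NEAT1, in the part that both isoforms share. MIR612, a microRNA gene, starts 21660 bases after it, in the part that only the long isoform has. They cover 7 and 2 windows of the 229 of NEAT1. The 3 rows near the start had 275 and 315 of scaled signal per window in control and 300.4 and 340 in auxin. The windows at MIR612 had 45.4 and 56.3 in control and 45.1 and 59.5 in auxin. The signal per window was thus higher near the start in 4 of 4 libraries, by 6.06- and 5.60-fold in control and 6.66- and 5.71-fold in auxin. The 7 windows near the start make up 3.06% of the gene and held 14.2% to 15.4% of its signal.

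No difference between the groups in the ratio of these places was seen beyond the spread of the replicates. The log2 ratio of MIR612 over the rows near the start was -2.54 ± 0.080 in control and -2.62 ± 0.16 in auxin (n = 2 each, SD), and the groups overlapped (two-sided exact permutation p = 0.667, where 0.33 is the smallest possible). The 219 windows that none of the short rows cover had 52.4 and 54.9 per window in control and 56.4 and 62.1 in auxin, close to the level at MIR612. This mean also takes in the uncovered windows near the start, so it is not the level of the long-isoform part alone. Each short row but AP000769.4, described next, was also tested in the fit over all genes, and none was called: the log2 fold changes were 0.15 for AP000944.4, 0.070 for AP000944.3 (-0.016 without auxin replicate 2), 0.13 for AP000944.2 and 0.035 for MIR612 (limma adjusted p from 0.906 to 0.993). The window at the very end of NEAT1 is also that of the row AP000769.4, which starts at 65445541, just beyond the gene. It spans bases 22703 to 22803 from the start of a gene of 22743 bases, so it lies partly outside NEAT1. The signal there was 1.69 and 1.03 in control and 3.57 and 5.61 in auxin. These values amount to few steps of the scale and the row did not pass the filter on low values.

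The short rows inside MALAT1 showed another order. The row AP000769.2, a lncRNA on the minus strand at 65498010 to 65498405, ends 640 bases before the second RefSeq start, so its windows lie between the starts whose promoters are printed above. There the signal was 20.9 and 38.3 per window in control and 29.98 and 32.6 in auxin. The row AP000769.5, a misc_RNA which begins 3869 bases beyond the second start, had 217 and 276 in control and 268 and 217 in auxin. The windows between the starts were lower in 4 of 4 libraries, by 10.4- and 7.22-fold in control and 8.94- and 6.67-fold in auxin. The values hold both strands, and the RefSeq span of the antisense TALAM1 takes in AP000769.5 but not the windows between the starts. The part of TALAM1 in this difference was not tested. The row AP000769.3 lies at the RefSeq position of mascRNA (65506117 to 65506174) and covers 1 window. It had 50.01 and 56.3 in control and 50.9 and 49.4 in auxin, below AP000769.5 by 4.33- to 5.27-fold over the libraries.

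None of these rows differed between the groups beyond the spread of the replicates. The log2 fold changes were 0.14 for AP000769.2, -0.019 for AP000769.5 and -0.080 for AP000769.3 (limma adjusted p from 0.965 to 0.995). The sign of each turned when single libraries were left out: AP000769.2 was at -0.28 without control replicate 1, AP000769.5 at 0.16 without control replicate 2, and AP000769.3 at 0.0031 without control replicate 2. Near its start NEAT1 was denser than AP000769.5 in MALAT1: the 3 NEAT1 rows exceeded AP000769.5 by 1.27- and 1.14-fold in control and by 1.12- and 1.56-fold in auxin, whereas per kb of the whole span MALAT1 exceeded NEAT1 in every library.

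**Figure D2:**
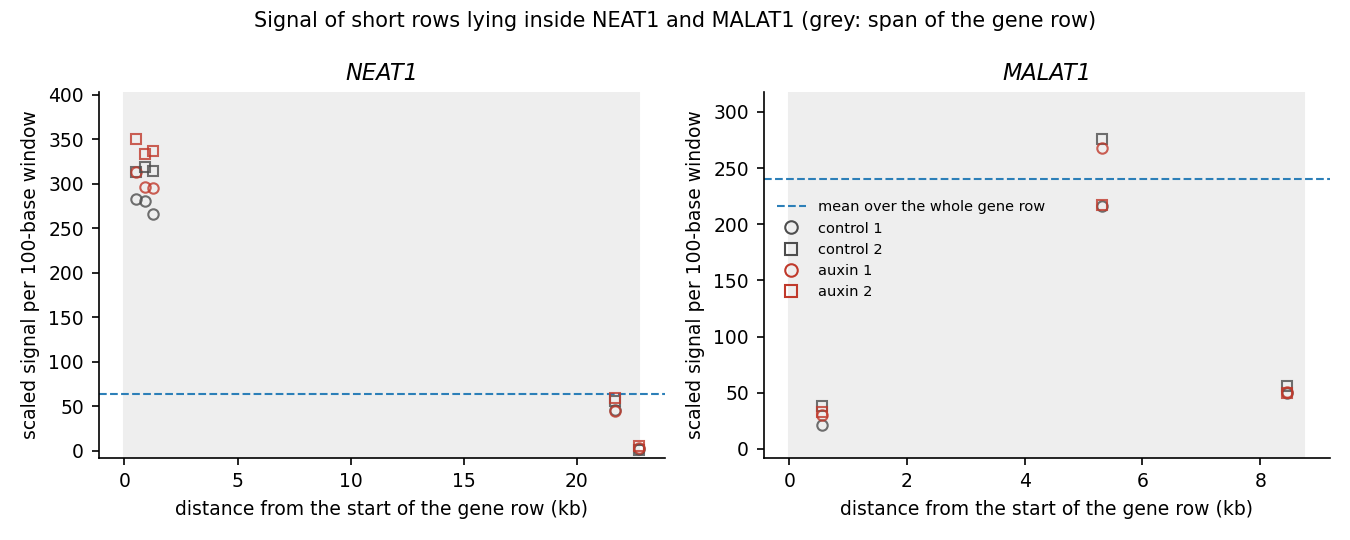
Scaled signal per 100-base window (vertical axis) of short rows inside NEAT1 (left) and MALAT1 (right), by distance from the start of the gene row in kb, with 1 point per library (grey for control, red for auxin) and a dashed line at the mean of the whole row. The rightmost row of the NEAT1 panel, AP000769.4, starts just beyond the gene and shares its last window. Only these rows are resolved along the genes. Among them, in each of the 4 libraries, those near the start of NEAT1 are the highest of its panel. In MALAT1 the rows near the first start and at the mascRNA position are lower than AP000769.5.

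The rows named here between NEAT1 and MALAT1 had less signal per kb than either gene. Between NEAT1 and MALAT1, which lie 52.1 kb apart, the pseudogene AP000769.1 had 149 and 83.7 of scaled signal per kb in control and 160 and 126 in auxin. The lncRNA rows LINC02736 and AP000769.6, also in that gap, stayed at or under 11.7 per kb in each library.

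By the deposited spans, the nearest tested protein-coding genes on the outer sides were SLC25A45, a mitochondrial carrier gene 4.26 kb from FRMD8, and ZNRD2, 12.1 kb from LTBP3. RefSeq gives FRMD8 a longer span, 65368026 to 65413525. That span takes in SLC25A45 (65375192 to 65382373) and most of the row AP000944.1 (65367438 to 65375299). The values hold both strands, and whether signal of these rows belongs to FRMD8 was not tested. SLC25A45 was at 518 and 535 in control and at 853 and 883 in auxin. Its libraries were close within each group and apart between them, with a log2 fold change of 0.72 (SE 0.18), but it was not called over all genes (adjusted p = 0.136 by limma). The lncRNA row AP000944.1, which shares 2 windows with SLC25A45 and was picked after its values were seen, was at 188 and 185 in control and 341 and 348 in auxin (log2 fold change 0.88, adjusted p = 0.127 by limma). ZNRD2 was at 646 and 699 in control and 633 and 608 in auxin (log2 fold change -0.12, adjusted p = 0.943 by limma).

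Within 500 kb of the outer ends of the 4 genes, 88 of 101 other rows were tested. The 88 include the tested short rows inside NEAT1 and MALAT1, which share the signal of those genes. The median log2 fold change of the 88 was 0.034, against 0.0089 over all genes tested, and 47 of the 88 were above 0. Without auxin replicate 1 the median was -0.027. In 18 rows both auxin libraries lay above both control libraries, and in 15 below, against 18.6% and 19.6% of all genes tested. By limma 12 of the 88 had an unadjusted p under 0.05, against 10.2% of all genes tested. The 3 called rows, 3.41% against 0.732% of all, belong to 1 place: OVOL1-AS1 and AP001266.1 lie within OVOL1, so they share its signal.

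OVOL1 (ENSG00000172818, plus strand, 65787063 to 65797214), which encodes a zinc finger repressor active in epithelial differentiation, lies 229 kb beyond LTBP3. It rose from 2347 and 2308 in control to 4886 and 4542 in auxin, a log2 fold change of 1.02 (adjusted p = 0.0110 by limma, SE 0.14). It was not called on the deposited scale, where the limma adjusted p was 1. Without 1 library at a time its log2 fold change ran from 0.97 to 1.07, in fits that leave 1 group with a single library. Fits without a control library took the spread in part from the auxin group. Fits without an auxin library took it wholly from the trend over all genes. OVOL1-AS1 rose by 1.11 and AP001266.1 by 1.07 on the log2 scale (adjusted p = 0.0310 and 0.0404 by limma). Both lost the call on the deposited scale (adjusted p = 0.896 and 1) and without control replicate 1, control replicate 2 or auxin replicate 2, with adjusted p up to 0.0769 for OVOL1-AS1 and 0.0907 for AP001266.1. The 26 tested rows within 100 kb, which also include those short rows inside NEAT1 and MALAT1, held no call. Their median log2 fold change was 0.0096. Of the 26 rows, 3 had an unadjusted p under 0.05 by limma, a share near the 10.2% of all genes tested. They were CDC42EP2, AP000944.1 and SLC25A45, all higher with auxin and all on the FRMD8 side. AP000944.1 and SLC25A45 share windows, so they are not independent.

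**Figure D3:**
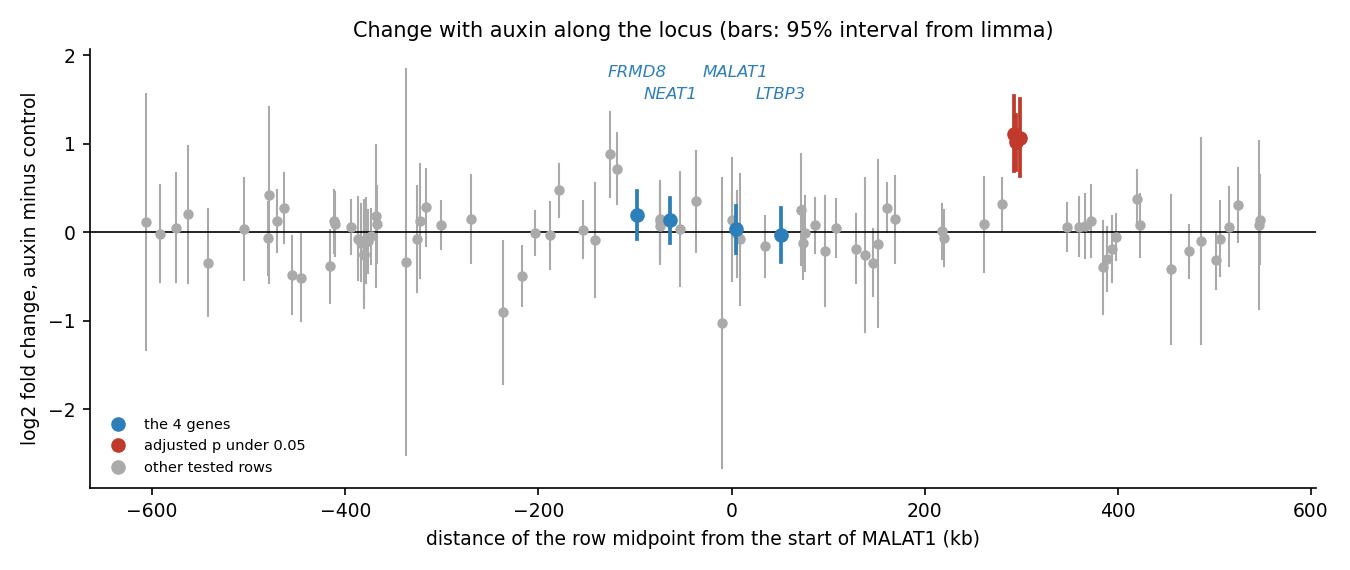
Log2 fold change (auxin minus control) with its 95% interval for the tested rows around the locus, by distance of the row midpoint from the start of MALAT1 in kb. The 4 genes (blue) sit near 0, and the called rows (red) all lie at OVOL1.

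Genes whose products work with these RNAs were read from the same fit, and the counts of each list are to be read against the 0.732% of all genes tested that were called and the 10.2% with an unadjusted p under 0.05. Of 22 genes of paraspeckle proteins, which assemble on NEAT1, all were tested and 0 were called (2 at an unadjusted p under 0.05, near the 10.2% of all genes). The log2 fold change was below 0 for all of them but HNRNPUL1, with a median of -0.13 and a range of -0.31 to 0.047. Over all genes tested, 48.7% were below 0 and the median was 0.0089. The median depended on control replicate 2 and was -4.97e-04 without it. In 6 of the 22 both auxin libraries lay below both control libraries, against 19.6% of all genes tested. SMARCC1, listed here as a paraspeckle component and known as a subunit of the SWI/SNF chromatin remodelling complex, had the smallest p, at 30874 and 32856 in control and 24640 and 27890 in auxin (log2 fold change -0.28, SE 0.11, adjusted p = 0.360 by limma). The core proteins SFPQ and NONO were at -0.0040 and -0.098, with overlapping groups.

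Of 24 genes of nuclear speckle proteins, the bodies at which MALAT1 resides, all were tested and 0 were called (2 at an unadjusted p under 0.05, near the 10.2% of all genes), with a median of -0.087. That median was 0.041 without control replicate 2. U2AF2, which encodes a subunit of the factor that recognises the 3′ splice site, had the smallest p, at 12752 and 13343 in control and 11299 and 10402 in auxin (log2 fold change -0.27, adjusted p = 0.460 by limma). Of 13 genes for RNA 3′ end processing and stability, among them the RNase P subunits, ELAC2 (RNase Z, which trims mascRNA) and METTL16 (which binds the MALAT1 triple helix), 0 were called and 1 had an unadjusted p under 0.05, against 10.2% of all genes. That gene, RPP40, a protein subunit of RNase P, was at 1008 and 1131 in control and 832 and 714 in auxin (log2 fold change -0.47, adjusted p = 0.382 by limma). RPPH1, the RNA of RNase P, was at 0.022, ELAC2 at -0.18 and METTL16 at -0.012 on the log2 scale.

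Among 12 other genes listed as lncRNAs that stay in the nucleus or act on chromatin, 1 was called, against 0.732% of all genes. The deposited annotation gives TUG1, a gene of this list, as protein-coding. PVT1 fell from 134562 and 126282 in control to 89121 and 97125 in auxin, a log2 fold change of -0.49 (adjusted p = 0.0312 by limma, SE 0.084). That call did not hold on the deposited scale (adjusted p = 1), without the filter (0.106), with a mean of at least 50 (0.0868), without control replicate 1 (0.0901) or without control replicate 2 (0.0741). The median of the 12 was -0.070, and 5 were above 0. By limma 2 of the 12 had an unadjusted p under 0.05, against 10.2% of all genes tested. The signal of MEG3, MIAT and CRNDE was low, with control means of 48.5, 34.7 and 116. Of LTBP3's relatives and partners in TGF-beta storage and activation, 1 of 12 was called, against the same 0.732%: TGFB3, which encodes a TGF-beta ligand, rose from 726 and 625 to 1345 and 1316, a log2 fold change of 0.98 (adjusted p = 0.0390 by limma, SE 0.18). TGFB3 lost the call on the deposited scale (adjusted p = 1) and without control replicate 2 (0.124), auxin replicate 1 (0.0619) or auxin replicate 2 (0.0612). ITGB8, which encodes an integrin subunit and was picked after its values were seen, was at 535 and 1326 in control and 219 and 383 in auxin (log2 fold change -1.54, SE 0.39, adjusted p = 0.137 by limma). Its control libraries differed more than 2-fold. In this list of LTBP3's relatives and partners, 3 of 12 had an unadjusted p under 0.05 by limma, against 10.2% of all genes tested.

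FRMD8 partners were the iRhom genes RHBDF1 and RHBDF2 and the protease gene ADAM17, of which 0 of 3 were called and 1 had an unadjusted p under 0.05, against 0.732% and 10.2% of all genes. RHBDF1 was at 1323 and 1258 in control and at 2227 and 1909 in auxin (log2 fold change 0.68, SE 0.16, adjusted p = 0.123 by limma). RHBDF2 (-0.027) had overlapping groups. In RHBDF1 and ADAM17 (0.14, adjusted p = 0.835 by limma) the auxin libraries lay above the control libraries, an order seen in 18.6% of all genes tested.

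**Figure D4:**
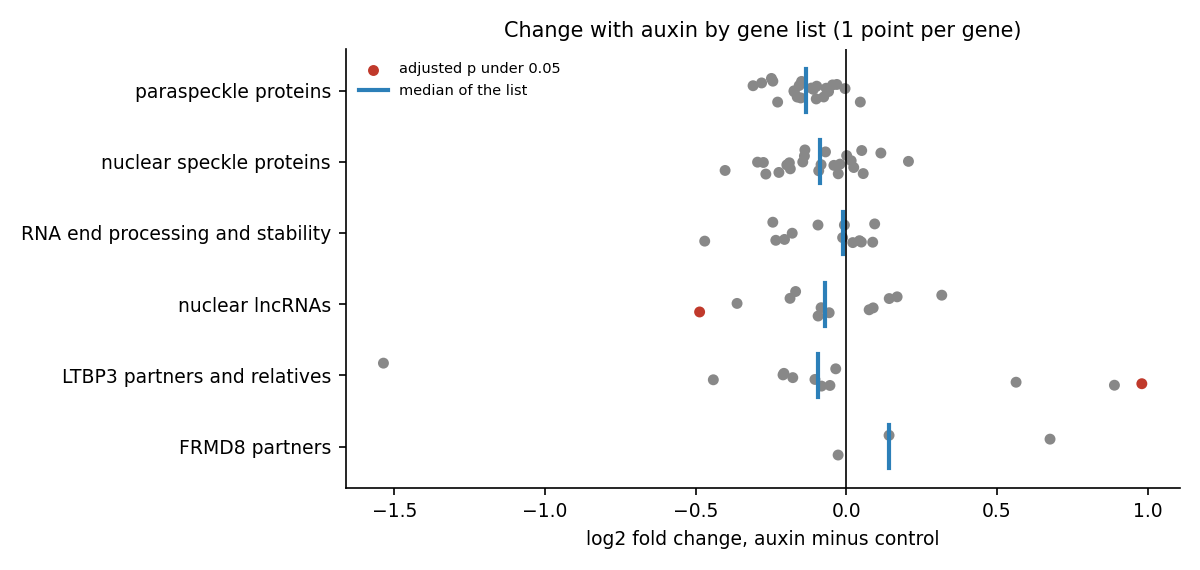
Log2 fold change (auxin minus control, horizontal axis) of the genes of each list, 1 point per gene, with the list's median in blue and called genes in red. PVT1 (below 0) and TGFB3 (above 0) are the called genes of these lists.

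The genes most like MALAT1 over the 4 libraries, by the Euclidean distance between centred log2 values among 29146 genes whose mean reached 50, were RNU2-2P (0.014), CRIPT (0.016) and MRPL41 (0.021). Those most like NEAT1 were CDC25B (0.013), HMGA1P2 (0.019) and WNT3 (0.021). With 4 libraries such likeness is common: 2463 genes lay within 0.2 of MALAT1 and 3887 within 0.2 of NEAT1.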

How the data were processed

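Per the submitters' processing notes, Trimmomatic 0.39, Bowtie2 2.4.5, deepTools 3.5.1 and the builds hg38 and dm6 were used, with roles not given in the sources used here. Per the labels' protocols, labelled fly RNA was added before capture and the library kit keeps strand. The authors deposited 1 table of scaled signal per gene and library. Each column's values of up to 20 steps are whole multiples of 1 step (within 0.02), which were not treated as reads, so limma on log2 values was used, as planned for a scaled signal. A misspelt control column was assigned by its replicate number. Starts count from 0 in the table and are printed 1 higher. Of 37753 symbols matched to RefSeq GRCh38, 99.8% overlapped the gene of that name.

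Genes with a value equivalent to at least 10 in a library of median total in 2 libraries and a total of at least 15 were tested (39464). Libraries were divided by trimmed-mean factors of 0.999, 1.01, 0.816 and 1.21 (control 1 and 2, auxin 1 and 2). The log2 of the scaled value plus 1 was fitted with limma 3.58.1 in R 4.3.3 (eBayes with trend), with the Benjamini-Hochberg adjustment and a threshold of 0.05. A fold change thus refers to value plus 1 and understates low genes. The fit was tested on simulated data. Python 3.11.15 (pandas 2.3.3, matplotlib 3.10.9) made tables and figures. Ratios were tested with exact permutation.

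The 4 genes and the lists were chosen with earlier results of these data known. Named genes were the 4 genes, rows overlapping them, the nearest tested protein-coding gene on each side, called rows within 500 kb, each list's called genes or else its gene with the smallest p, and the 3 genes most like MALAT1 and NEAT1. All other genes named with values (such as SFPQ, ITGB8 or AP000769.1) were chosen after their values were seen. One result that this rule covers is not reported here. Promoter windows are from RefSeq GRCh38.p14 and were matched for FRMD8, MALAT1 and LTBP3. Alternatives were other scalings, filters and pseudocounts, a threshold of 0.01, other windows, the replicate number as a block and leaving out each library.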

Additional observations from a re-analysis of the deposited data

How the results depend on the processing

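For the 4 genes, no alternative tried brought an adjusted p under 0.05. NEAT1 and FRMD8 stayed above 0 in each setting. Without 1 library at a time the log2 fold change ran from -0.089 to 0.16 for MALAT1, 0.064 to 0.22 for NEAT1, 0.12 to 0.28 for FRMD8 and -0.14 to 0.089 for LTBP3. MALAT1 turned sign without control replicate 1 (-0.089) and auxin replicate 1 (-0.025). LTBP3 turned sign without control replicate 2 (0.018), without auxin replicate 2 (0.089) and with scaling by library total (0.0072). Of the short rows, AP000769.5 turned sign with scaling by library total (0.016). Without 1 library at a time, AP000769.5 ran from -0.19 to 0.16, AP000769.2 from -0.28 to 0.58, AP000769.3 from -0.15 to 0.0031, MIR612 from -0.16 to 0.24 and AP000944.3 from -0.016 to 0.16. The count of 289 called genes was 55 on the deposited scale, 82 at a threshold of 0.01 (fewer by construction), 4273 with the replicate block and 132 to 681 without 1 library at a time; the cause was not tested. Fits without 1 library leave 1 group with a single library, which is assumed to vary like the other group. The median within 500 kb ran from -0.027 to 0.067 without 1 library at a time. Without 1 library at a time the shift of FRMD8 over LTBP3 ran from 0.10 to 0.34, and the other 5 ratios lay on both sides of 0.

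No label ties equal replicate numbers to a common day or batch, and with 2 pairs that cannot be settled. Replicate differences correlated between control and auxin (Pearson's r 0.231 across genes, and 0.462 across those whose mean reached 50). With the replicate block none of the 4 genes was called (limma adjusted p 0.249 for FRMD8, 0.483 for NEAT1, 0.931 for MALAT1 and 0.945 for LTBP3). Among the genes named with values, the block added calls for ITGB8 (4.11e-19), CDH1 (7.07e-07), KRT19 (0.00350), COL1A1 (0.00311), SLC25A45 (4.47e-05), AP000944.1 (1.83e-04), SMARCC1 (0.0284), RPP40 (0.0101) and RHBDF1 (2.31e-06), where it called 10.8% of all genes. In the block fit limma took each gene's spread wholly from the trend over all genes. These adjusted p-values therefore do not reflect the spread of the gene itself, such as that of ITGB8 between its control libraries. The same held for the fits on the deposited scale and without either auxin library.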
